A study of Mus musculus with 9 samples.

Results

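Transient receptor potential (TRP) channels are cation channels that open to chemical ligands, temperature, stretch, lipid messengers or the state of the calcium stores, and most of them admit calcium. 9 members, Trpv1, Trpv2, Trpv4, Trpm4, Trpm5, Trpm7, Trpc1, Trpc6 and Pkd2, were matched by gene symbol to a table of 54532 genes, and they are 9 of the 28 channels of the family examined. They were followed in 3T3-L1 cells, a clonal mouse fibroblast line that can be driven to become adipocytes, in 9 poly A-enriched RNA-seq libraries forming 3 groups of 3. All cells were held at confluence for 3 days in growth medium with calf serum, and Undifferentiated cells received no inducer. Differentiated cells were then given a lysine- and arginine-free medium with fetal serum, to which both amino acids had been returned, with insulin at 10 µg/mL, rosiglitazone and dexamethasone at 1 µM each and the phosphodiesterase inhibitor IBMX at 0.5 mM. Lysfree cells received that same inducing medium without the added lysine, although the study measured traces of lysine still present in it. The Differentiated and Lysfree groups therefore differed in added lysine, whereas either group differed from Undifferentiated in base medium, serum and inducers together. The study describes 3 days of culture in the lysine-free medium. Its text does not say when Undifferentiated cells were collected, so time in culture may also have differed. Nothing in the sample labels says that the replicates were separate cultures, so p-values measure the spread between these libraries, which may be technical.

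In preadipocytes calcium entry bears on the choice between proliferation and lipid storage, and raised calcium early in induction is known to hold adipogenesis back. TRPV1, TRPV2 and TRPV4 belong to the vanilloid branch, TRPM4, TRPM5 and TRPM7 to the melastatin branch, TRPC1 and TRPC6 to the canonical branch, and polycystin-2, the product of Pkd2, to the polycystin branch. TRPM4 and TRPM5 differ from the rest in that calcium opens them while they pass monovalent cations.

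Library depth was 15880144 to 21806693 assigned reads, with a median of 17784064. Between 18442 and 19536 genes had a count in a library. Levels are given below in FPKM (a unit that divides reads by gene length and library size, so that genes can be compared per length). Beyond that division the deposited values carry a fixed factor for each library, from 0.932 in Lysfree 3 to 1.04 in Differentiated 1. Differences are log2 fold changes from edgeR's quasi-likelihood test on counts, with Benjamini-Hochberg adjusted p over all genes. The standard error (SE) beside them was derived from that test, as the size of the change over the square root of its F statistic. A differentially expressed gene (DEG) had an adjusted p under 0.05 and a change of at least 2-fold. The Lysfree 1 library stood apart from the other Lysfree libraries, with a chi-square per degree of freedom of 43.3 and 44.4 against them, where Lysfree 2 and 3 gave 2.76 against each other. Adipocyte markers summed to 312 to 395 FPKM in Undifferentiated, 6670 to 6980 in Differentiated and 238 to 314 in Lysfree libraries, and all 10 were DEGs higher in Differentiated than in Undifferentiated and lower in Lysfree than in Differentiated. The 8 fibroblast and preadipocyte markers summed to 4140 to 4480, 1090 to 1100 and 1900 to 2000 FPKM in the same order of groups. Of these, 6 were DEGs lower in Differentiated than in Undifferentiated, and 5 were DEGs higher in Lysfree than in Differentiated. Col1a1, a collagen gene at 1890, 362 and 327 FPKM, did not pass the test between the induced groups (log2 fold change -0.08 ± 0.08, adjusted p = 0.45, edgeR). Ly6a and Thy1 were higher in Lysfree than in Undifferentiated (2.10 ± 0.10, adjusted p = 1e-17, and 0.39 ± 0.10, adjusted p = 0.0018, edgeR). Against these 2, 5 of the 8 passed the adjusted p threshold lower in that comparison, and 1 was a DEG higher and 4 lower. Of the 10 adipocyte markers 1 passed it higher and 7 lower, with 0 DEGs higher and 4 lower. Over all genes 5.52% were DEGs higher and 8.76% lower there. The part of these cell-state shifts in the channel differences below was not tested, and a smaller share of cells expressing a gene cannot be told apart from less RNA per cell. Markers of macrophages stayed at or below 0.144 FPKM in sum, with Ptprc, Adgre1, Itgam and Cd163 at 3 counts or fewer in every library. Of the other macrophage markers, Csf1r had 13, 10 and 11 counts in Undifferentiated, 4, 1 and 3 in Differentiated and 0, 0 and 1 in Lysfree libraries, and Mrc1 had 8, 6 and 8 counts in Differentiated libraries, 1 in Undifferentiated 2 and 0 in the rest. Endothelial markers summed to 0.272 FPKM at most, muscle markers to 0.487 and sensory neuron markers to 0.412.

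The upstream sequences of a few members are shown because the results turn on them: Trpc1 had the highest log2 fold change on differentiation, Trpv1 had the lowest log2 fold change in Lysfree vs Differentiated, and Trpm7 changed in opposite directions in the presence and absence of lysine. RefSeq promoter entries (GRCm38.p6) matched 8 of the 9 members. Each line gives the 250 bases before the RefSeq start, 5′ to 3′ on the gene's strand, with motif matches in capitals.

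Trpc1, chr9:95750349-95750598, minus strand: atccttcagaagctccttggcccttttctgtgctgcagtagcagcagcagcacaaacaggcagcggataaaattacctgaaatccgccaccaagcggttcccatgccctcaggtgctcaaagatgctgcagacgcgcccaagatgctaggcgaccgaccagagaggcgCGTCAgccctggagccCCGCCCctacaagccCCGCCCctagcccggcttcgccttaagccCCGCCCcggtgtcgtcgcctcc
Trpv1, chr11:73233899-73234148, plus strand: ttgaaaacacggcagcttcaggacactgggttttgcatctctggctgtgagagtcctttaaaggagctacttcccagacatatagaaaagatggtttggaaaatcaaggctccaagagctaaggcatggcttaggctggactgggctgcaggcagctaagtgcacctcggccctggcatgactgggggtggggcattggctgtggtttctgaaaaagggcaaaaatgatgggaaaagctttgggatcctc
Trpm7, chr2:126876262-126876511, minus strand: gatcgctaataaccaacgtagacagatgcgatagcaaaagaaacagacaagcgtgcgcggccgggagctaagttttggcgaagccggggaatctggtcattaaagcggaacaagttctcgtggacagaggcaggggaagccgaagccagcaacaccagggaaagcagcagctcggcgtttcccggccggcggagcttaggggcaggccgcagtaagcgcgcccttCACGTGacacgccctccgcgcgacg

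The capitals in Trpc1 mark 3 GC boxes (GGGCGG, here on the opposite strand as its complement) and 1 short cAMP motif (TGACG, likewise on the opposite strand). Those in Trpm7 mark an E-box, CACGTG, from -25 to -20 relative to the start. Trpv1 carried no match. On both strands, GGGCGG occurred in 32.7% of 32851 such windows of all genes, TGACG in 17.8% and CACGTG in 6.02%. In the other members, Trpv4 held 2 GC boxes, Trpc6 held TGACG and Pkd2 held the nuclear receptor motif AGGTCA, which was found in 14% of windows. No member's window held the full PPAR element (AGGTCA repeated with 1 base between), the glucocorticoid element (AGAACA and TGTTCT with 3 bases between), the cAMP element TGACGTCA, the C/EBP letters TTGCGCAA or TTGCATCA, the sterol element TCACNCCAC or TATAAA. The full PPAR and glucocorticoid letters were rare everywhere, at 0.0335% and 0.00913% of windows. GC content was 62.8% for Trpc1, 60.4% for Trpm7 and 50.8% for Trpv1, beside a median of 52.4% over all windows. The last 27 bases of the Trpc1 window lie inside the gene span that the count table uses.

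Pkd2 and Trpm7 were the most abundant channels in every group. In Undifferentiated cells the mean levels ran from Pkd2 at 24.4 FPKM through Trpm7 at 14.5, Trpm4 at 2.4, Trpc1 at 0.762, Trpm5 at 0.456, Trpv4 at 0.44 and Trpv2 at 0.278 to Trpv1 at 0.107. The libraries of Trpm5, Trpv4 and Trpv2 overlapped in that order, and other neighbours did not. In Differentiated cells Pkd2 at 11.7 and Trpm7 at 11.2 FPKM overlapped, Trpc1 came next at 5.43, and Trpv2 at 0.782, Trpm4 at 0.714 and Trpv1 at 0.492 followed with overlapping ranges. Trpm5 at 0.14 and Trpv4 at 0.124 FPKM stood last there and overlapped each other. In Lysfree cells, the group with the inducers and without added lysine, the order was Pkd2 at 20.6, Trpm7 at 18.8, Trpm4 at 1.23, Trpc1 at 0.949, Trpv4 at 0.195, Trpv2 at 0.183, Trpm5 at 0.041 and Trpv1 at 0.039 FPKM. These fell into 4 pairs of neighbours, and within each pair the libraries overlapped.

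**Figure D1:**
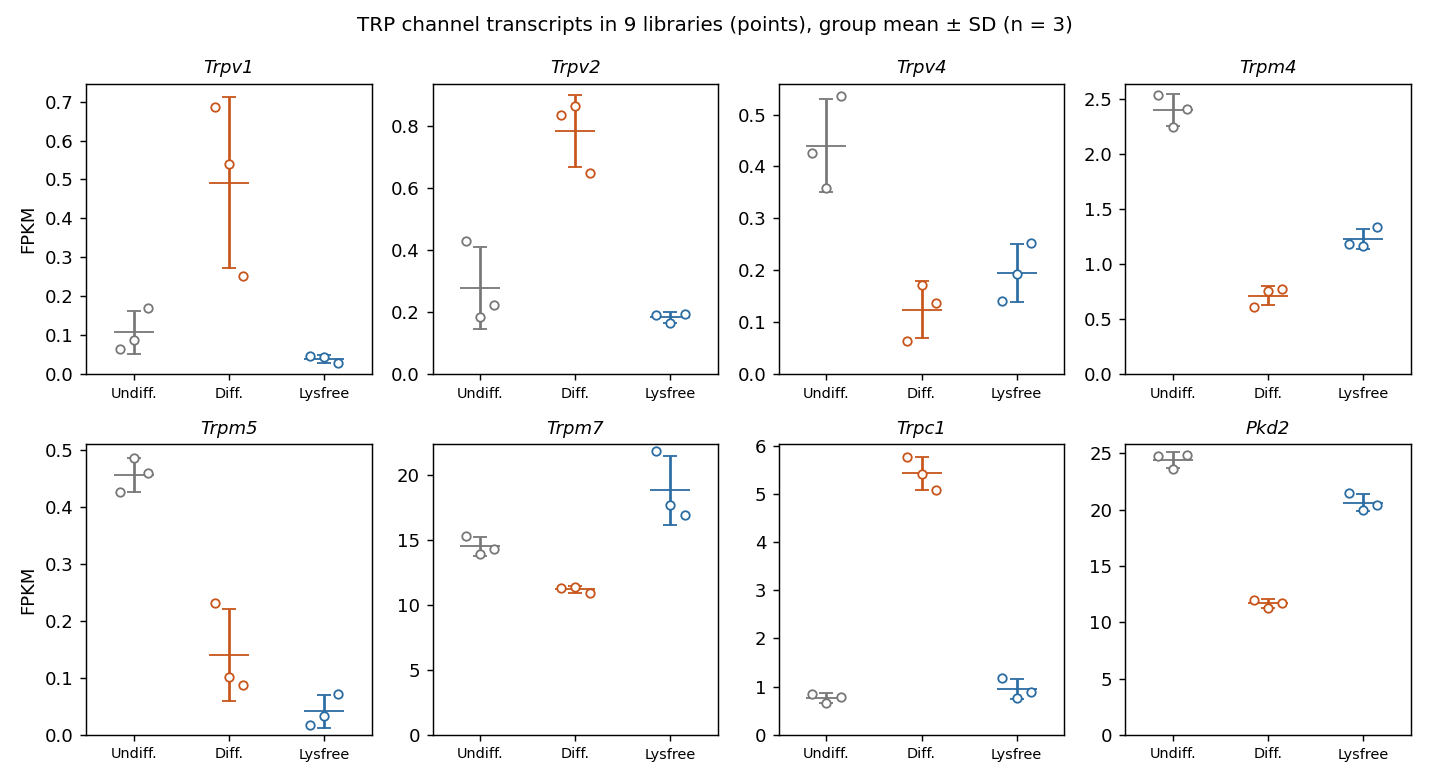
FPKM of 8 TRP channels (y axes start at 0 and differ between panels) in the Undifferentiated, Differentiated and Lysfree groups; points are libraries, bars the mean ± SD of 3. Trpc1 is at 5.09 to 5.77 in Differentiated libraries and at or below 1.18 in all others, whereas Trpm7 and Pkd2 are lowest in Differentiated libraries.

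In Differentiated vs Undifferentiated 8 of the 8 measurable members passed the adjusted p threshold, as did 46.1% of the 24402 genes tested. The words 'on differentiation' name this comparison throughout, in which base medium, serum and inducers differed together. 7 were DEGs, against 21.8% of genes: Trpc1, Trpv1 and Trpv2 were higher (3 of 8, against 10.4%) and Trpm4, Trpm5, Trpv4 and Pkd2 lower (4 of 8, against 11.4%). Trpm7 was lower by less than 2-fold. The FPKM of the 3 Differentiated libraries lay wholly apart from the 3 Undifferentiated ones for all 8, as it did for 50.9% of genes. Their median log2 fold change was -0.75, beside 0.02 over all genes. Without added lysine the picture differed: compared with Undifferentiated, 2 of the 8 were DEGs, both lower (Trpm5 and Trpv4), where 14.3% of 23994 genes were called, 5.52% higher and 8.76% lower. In all 4 members passed the adjusted p threshold, beside 35.1% of genes, and 6 did not overlap, beside 43.5%. Trpm4 was lower and Trpm7 higher by less than 2-fold, and Trpv1, Trpv2, Trpc1 and Pkd2 did not pass the test. The median was -0.74, beside -0.02 over all genes. The direct comparison of Lysfree with Differentiated gave 4 DEGs, all lower (Trpc1, Trpv1, Trpv2 and Trpm5), with 18.7% of 24130 genes called, 8.14% higher and 10.5% lower, and Trpm7, Pkd2 and Trpm4 were higher by less than 2-fold. 7 of 8 passed the adjusted p threshold there, beside 38.5% of genes, and 7 did not overlap, beside 46.6%. The median was -0.47, beside -0.06 over all genes. The 3 comparisons share libraries, so they are not independent of each other. The list was also drawn in part from channels that the study itself plotted from these samples, so its counts are no independent evidence.

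**Figure D2:**
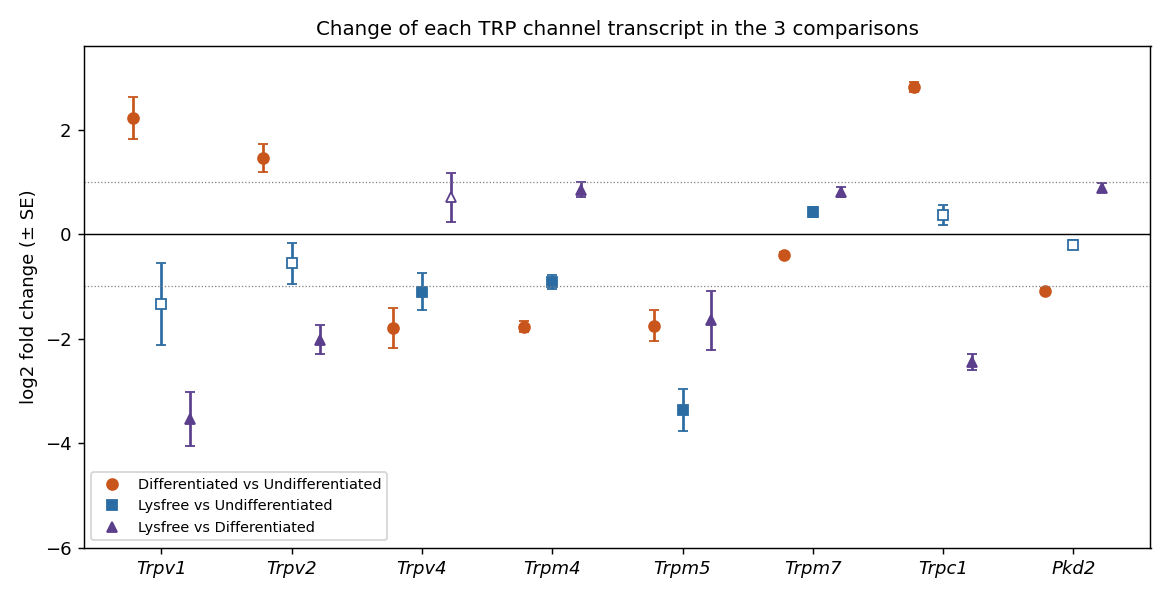
log2 fold change ± SE of each member in 3 comparisons (edgeR, 3 libraries against 3); filled symbols passed an adjusted p of 0.05, open symbols did not, and dotted lines mark 2-fold. Trpc1, Trpv1 and Trpv2 lie above 2-fold for Differentiated vs Undifferentiated and below it for Lysfree vs Differentiated.

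Trpc1 encodes a canonical channel subunit linked to receptor- and store-operated entry (ENSMUSG00000032839, chromosome 9: 95705082 to 95750375, minus strand). It stood at 0.847, 0.653 and 0.785 FPKM in Undifferentiated libraries 1 to 3, at 5.77, 5.42 and 5.09 in Differentiated and at 1.18, 0.771 and 0.892 in Lysfree. All Differentiated libraries were above all others, while Lysfree and Undifferentiated overlapped. The rise on differentiation was 2.81 ± 0.10 on the log2 scale (adjusted p = 3.3e-159, n = 3 per group, edgeR), or 7.0-fold. With lysine left out the level was lower than in Differentiated by 5.48-fold (log2 fold change -2.45 ± 0.15, adjusted p = 1.3e-11, edgeR). Lysfree against Undifferentiated gave 0.36 ± 0.19 (adjusted p = 0.17, edgeR), and 0.15 without Lysfree 1. Summed reads were 361, 2187 and 424 in the 3 groups.

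Trpc6, the diacylglycerol-gated member of the same branch (ENSMUSG00000031997, chromosome 9: 8544142 to 8680741, plus strand), had 0 counts in all 9 libraries. A count of 0 allows up to 3 reads, which is 0.138 to 0.189 CPM or 0.027 to 0.0383 FPKM depending on the library. It was therefore not detectable at this depth and entered no test.

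Trpv1 encodes the capsaicin- and heat-gated channel of sensory neurons (ENSMUSG00000005952, chromosome 11: 73234292 to 73261242, plus strand). Its levels were 0.0638, 0.0867 and 0.17 FPKM in Undifferentiated, 0.685, 0.54 and 0.252 in Differentiated and 0.0464, 0.0427 and 0.028 in Lysfree libraries, and the 3 groups did not overlap. The reads behind them were few, at 22, 91 and 8 in sum. Undifferentiated libraries held 5, 7 and 10 reads and Lysfree libraries 3, 3 and 2. The Lysfree counts are thus no higher than the 3 reads that a count of 0 allows. Differentiated exceeded Undifferentiated by 2.22 ± 0.41 (adjusted p = 1.9e-07, edgeR), and Lysfree was below Differentiated, at -3.54 ± 0.52 (adjusted p = 7.9e-06, edgeR). The ratio of summed reads, scaled for depth, was 12.2 for Differentiated over Lysfree, with an exact 95% interval of 5.95 to 29.2 that covers counting error only. Lysfree against Undifferentiated was -1.34 ± 0.78 (adjusted p = 0.21, edgeR) although no libraries overlapped. Of the sensory neuron markers, Tac1 and Scn10a had 3 counts or fewer everywhere, while Calca, a neuropeptide gene, had 8, 3 and 1 counts in Differentiated libraries and 0 in the other 6. Prph, a neuronal filament gene of the same list, was highest in Lysfree instead, with 6, 6 and 3 counts in Undifferentiated, 0, 1 and 2 in Differentiated and 9, 9 and 16 in Lysfree libraries (Lysfree vs Differentiated 3.26 ± 0.80, adjusted p = 0.0022, edgeR). The part of such transcripts in the Trpv1 reads was not tested.

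Trpv2 encodes a vanilloid channel that is insensitive to capsaicin (ENSMUSG00000018507, chromosome 11: 62574486 to 62600515, plus strand). It measured 0.429, 0.183 and 0.223 FPKM in Undifferentiated, 0.836, 0.862 and 0.649 in Differentiated and 0.19, 0.164 and 0.195 in Lysfree libraries. Differentiated libraries were highest, and the other groups overlapped. The changes were 1.45 ± 0.27 for Differentiated vs Undifferentiated (adjusted p = 1.7e-07) and -2.02 ± 0.28 for Lysfree vs Differentiated (adjusted p = 4.9e-06), both by edgeR. Lysfree vs Undifferentiated gave -0.56 ± 0.39 (adjusted p = 0.31, edgeR). Of its 4623 transcript stretches of 75 bases, 61 also occurred in transcripts of other genes, 25 in all, so a small part of its reads could have been ambiguous.

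Trpv4, the osmotically and mechanically responsive vanilloid channel, moved the other way (ENSMUSG00000014158, chromosome 5: 114622152 to 114658421, minus strand). Levels were 0.426, 0.358 and 0.536 FPKM in Undifferentiated, 0.0634, 0.171 and 0.137 in Differentiated and 0.14, 0.193 and 0.253 in Lysfree libraries. Undifferentiated was above both induced groups, which overlapped. The log2 fold change was -1.80 ± 0.38 with lysine (adjusted p = 7.8e-06, edgeR) and -1.10 ± 0.35 without (adjusted p = 0.013, edgeR). The latter call rested on 104 and 45 reads: without Undifferentiated 3 it was -0.95 (adjusted p = 0.086), and without Lysfree 1 it was -0.94, under 2-fold (adjusted p = 0.024). Lysfree against Differentiated gave 0.70 ± 0.47 (adjusted p = 0.28, edgeR).

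Trpm4 encodes a calcium-activated, monovalent-selective channel (ENSMUSG00000038260, chromosome 7: 45302632 to 45333780, minus strand). It measured 2.54, 2.25 and 2.41 FPKM in Undifferentiated, 0.615, 0.754 and 0.772 in Differentiated and 1.18, 1.17 and 1.34 in Lysfree libraries. The 3 groups were fully separated, with Lysfree between the others. The fall was 1.77 ± 0.11 on the log2 scale with lysine (adjusted p = 2.3e-56, edgeR); without lysine the change was -0.92 ± 0.14 (adjusted p = 1.3e-06, edgeR). The difference between the induced groups was 0.85 ± 0.15 (adjusted p = 0.00011, edgeR). The pseudogene Rpl14-ps1 lies within the span of Trpm4 on the opposite strand and shares no exonic bases with it. It averaged 267, 226 and 136 FPKM in Undifferentiated, Differentiated and Lysfree, so its order was not that of Trpm4.

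Trpm5, the close relative of Trpm4 that serves taste transduction (ENSMUSG00000009246, chromosome 7: 143069153 to 143094642, minus strand), was lowest without lysine. It measured 0.425, 0.485 and 0.459 FPKM in Undifferentiated, 0.232, 0.101 and 0.0871 in Differentiated and 0.0178, 0.0328 and 0.0725 in Lysfree libraries. No groups overlapped, although Differentiated 3 and Lysfree 3 each held 9 reads. The changes from Undifferentiated were -1.75 ± 0.30 with lysine (adjusted p = 1.6e-08) and -3.37 ± 0.40 without (adjusted p = 1.6e-08), by edgeR. The latter was -4.06 without Lysfree 3, which held 9 of the 15 Lysfree reads. Lysfree vs Differentiated was -1.65 ± 0.57 (adjusted p = 0.027, edgeR), from 15 and 44 reads. That call was lost without Differentiated 1 (-1.10, adjusted p = 0.25), under DESeq2 (adjusted p = 0.056), under limma (adjusted p = 0.13 and 0.11) and with the replicate number in the model (adjusted p = 0.054), and edgeR's expression filter left the gene out of that comparison. Without Lysfree 3 the change was -2.33 (adjusted p = 0.005). Trpm5 also shares 220 exonic bases with Tssc4 on the opposite strand, and whether counting used strand is not given in the sources used here. Tssc4 averaged 17.0, 16.6 and 11.7 FPKM in the 3 groups, so it was far more abundant, and its own changes were -0.07 ± 0.08 (adjusted p = 0.52), -0.48 ± 0.18 (adjusted p = 0.032) and -0.43 ± 0.20 (adjusted p = 0.11, edgeR) when Differentiated and then Lysfree were set against Undifferentiated, and last Lysfree against Differentiated.

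Trpm7 encodes a magnesium- and calcium-permeable channel fused to a kinase (ENSMUSG00000027365, chromosome 2: 126791565 to 126876230, minus strand). It measured 15.3, 13.9 and 14.3 FPKM in Undifferentiated, 11.3, 11.4 and 10.9 in Differentiated and 21.8, 17.7 and 16.9 in Lysfree libraries. The groups were separated in the order Differentiated, Undifferentiated, Lysfree. Its change from Undifferentiated was -0.40 ± 0.06 with lysine (adjusted p = 7.9e-12) and 0.42 ± 0.10 without (adjusted p = 0.0012), by edgeR. The difference between the induced groups, tested directly, was 0.81 ± 0.10 (adjusted p = 6.5e-07, edgeR). Leaving out Lysfree 1, the highest library, gave 0.28 (adjusted p = 1.6e-05) against Undifferentiated and 0.67 against Differentiated (adjusted p = 4.3e-46). All of these changes were below 2-fold.

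Pkd2 encodes polycystin-2, a channel of cilia and endoplasmic reticulum that pairs with polycystin-1 (ENSMUSG00000034462, chromosome 5: 104459450 to 104505819, plus strand). It measured 24.8, 23.6 and 24.9 FPKM in Undifferentiated, 12, 11.3 and 11.7 in Differentiated and 21.5, 20 and 20.4 in Lysfree libraries. No groups overlapped. The change on differentiation was -1.09 ± 0.06 (adjusted p = 1.7e-84, edgeR), and Lysfree was above Differentiated by 0.89 ± 0.09 (adjusted p = 2.6e-08, edgeR). Lysfree vs Undifferentiated was -0.20 ± 0.09 (adjusted p = 0.11, edgeR), and -0.25 with an adjusted p of 8.8e-05 once Lysfree 1 was left out. Pkd1, which encodes the partner polycystin-1, measured 12.3, 10.3 and 11.4 FPKM in Undifferentiated, 4.2, 4.58 and 3.88 in Differentiated and 7.13, 7.74 and 7.51 in Lysfree libraries. Its changes were -1.45 ± 0.06 (adjusted p = 1.5e-132), -0.55 ± 0.10 (adjusted p = 2.8e-05) and 0.89 ± 0.10 (adjusted p = 1.3e-07, edgeR) when Differentiated and then Lysfree were set against Undifferentiated, and last Lysfree against Differentiated. Pkd1 was added to the text for this pairing, outside the naming rule.

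The make-up of the family shifted with the groups. Summed over the 28 channels, FPKM was 61.6, 58.3 and 61.0 in Undifferentiated, 39.0, 38.4 and 37.4 in Differentiated and 65.4, 57.6 and 56.8 in Lysfree libraries. The Differentiated sums were below all others, and the Undifferentiated and Lysfree sums overlapped. Trpc1 held 1.26% of the family sum in Undifferentiated, 14.2% in Differentiated and 1.57% in Lysfree cells. Pkd2 went from 40.5% to 30.5% and 34.5%, and Trpm7 from 24.0% to 29.3% and 31.3%. Trpv1 and Trpv2 held 1.28% and 2.04% in Differentiated cells and 0.0648% and 0.306% in Lysfree cells. The 9 members made up 71.9%, 79.9% and 70.2% of the sum, and most of the rest was Mcoln1, the lysosomal channel mucolipin-1, at 20.7%, 14.8% and 18.8%, and Pkd2l2, a polycystin-2 relative, at 7.07%, 4.55% and 10.7%.

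**Figure D3:**
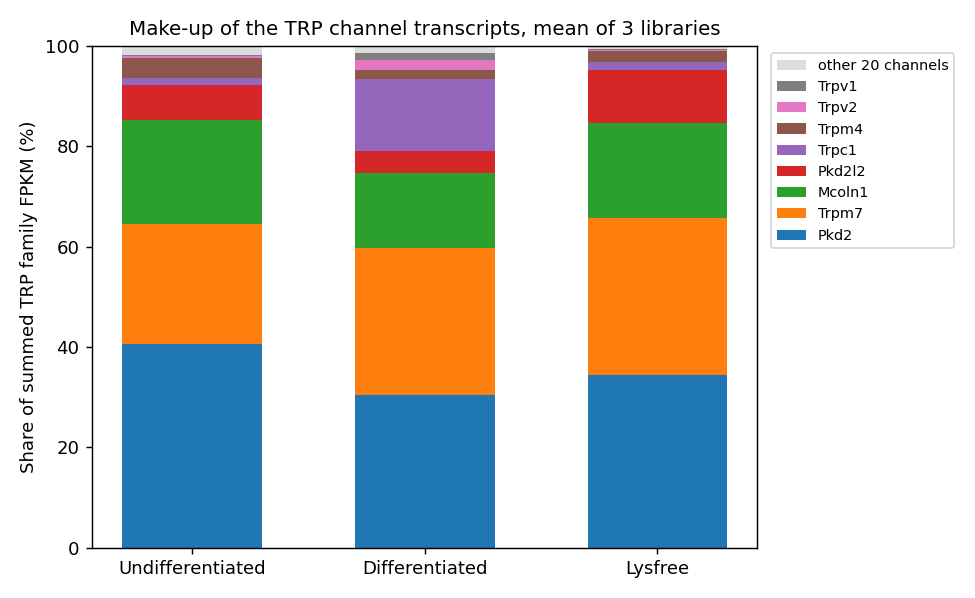
Share of the summed FPKM of 28 TRP family channels (y axis, percent) held by named channels, as the mean of 3 libraries per group. The Trpc1 block is 14.2% in Differentiated cells and under 2% in the other groups.

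Among the other 19 channels of the family, 2 averaged at least 1 CPM (counts scaled to library size). In Differentiated vs Undifferentiated 2 were higher and 3 lower of 15 tested, in Lysfree vs Undifferentiated 0 of 13 were DEGs by edgeR or DESeq2 (Pkd2l2 passed the adjusted p with a smaller change, and 2 had an unadjusted p under 0.05), and in Lysfree vs Differentiated 3 were higher and 2 lower of 12. Over all genes the shares were 10.4% and 11.4%, 14.3% in both directions, and 8.14% and 10.5%. Mcoln1 measured 12, 12.6 and 12.8 FPKM in Undifferentiated, 5.37, 5.94 and 5.63 in Differentiated and 10.8, 11.7 and 11.2 in Lysfree libraries. Like Pkd2, it was lower on differentiation (-1.16 ± 0.07, adjusted p = 1.9e-65) and higher without lysine than with it (1.06 ± 0.10, adjusted p = 1.4e-08, edgeR). Pkd2l2 measured 4.58, 3.98 and 4.24, then 1.72, 1.59 and 1.9, then 8.52, 5.63 and 5.3 FPKM in the same order of groups. Its Lysfree libraries were above all the rest, at 1.96 ± 0.19 over Differentiated (adjusted p = 1.8e-08, edgeR) and 0.65 ± 0.16 over Undifferentiated (adjusted p = 0.0019, edgeR). Trpv3, the warmth-responsive vanilloid channel named here after its values were seen, had 24, 52 and 6 reads in sum. Its Differentiated libraries (0.0849 to 0.239 FPKM) overlapped the Undifferentiated ones (0.0547 to 0.107 FPKM). Trpv3 changed by 1.28 ± 0.47 on differentiation (adjusted p = 0.014) and by -3.12 ± 0.62 in Lysfree vs Differentiated (adjusted p = 0.0003, edgeR). Trpm3, a melastatin channel likewise named after its values were seen, went the other way, with 35, 9 and 52 reads in sum and changes of -1.71 ± 0.67 (adjusted p = 0.024) and 2.40 ± 0.58 (adjusted p = 0.002, edgeR).

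The pathways that feed or clear the calcium these channels carry were examined from fixed lists. The counts of DEGs in these lists are to be read against the shares over all genes, which were 10.4% higher and 11.4% lower on differentiation and 8.14% higher and 10.5% lower in Lysfree vs Differentiated. Of 14 tested genes for store-operated entry and calcium stores, 4 were higher and 1 lower in Lysfree vs Differentiated, and on differentiation 1 was higher and 3 lower. Atp2a3, a pump that fills the endoplasmic reticulum with calcium, measured 0.329, 0.242 and 0.414 FPKM in Undifferentiated, 8.16, 8.28 and 8.09 in Differentiated and 2.49, 1.7 and 2.23 in Lysfree libraries. It rose by 4.64 ± 0.13 on differentiation (adjusted p = 6.9e-276) and was lower without lysine, at -1.87 ± 0.14 (adjusted p = 2.8e-10, edgeR), while staying 2.77 ± 0.22 above Undifferentiated (adjusted p = 4e-12, edgeR). Itpr3, an inositol trisphosphate receptor, averaged 10.8, 4.01 and 11.5 FPKM in the 3 groups. Orai2, a pore subunit of store-operated channels, averaged 11.7, 3.2 and 8.91. Both were lowest in Differentiated cells, and both were higher in Lysfree than in Differentiated, by 1.58 ± 0.11 (adjusted p = 1.5e-10) and 1.54 ± 0.11 (adjusted p = 2.3e-10, edgeR).

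Of 7 tested calcium extrusion genes, 2 were higher and 2 lower in Lysfree vs Differentiated, where 18.7% of all genes were called. Atp2b4, a plasma membrane calcium pump, averaged 0.843, 6.17 and 0.259 FPKM in the 3 groups, with Lysfree below Differentiated at -4.52 ± 0.17 (adjusted p = 8.9e-15, edgeR). Its paralogue Atp2b1 averaged 7.7, 5.49 and 16.5 FPKM and was higher without lysine, at 1.65 ± 0.10 (adjusted p = 9e-12, edgeR). Slc8a1, the sodium-calcium exchanger, averaged 22.7, 1.67 and 5.22 FPKM, with a Lysfree vs Differentiated change of 1.69 ± 0.17 (adjusted p = 3.7e-08, edgeR).

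Phospholipase C makes the messengers that open TRPC channels and release stores. Of 12 tested genes of Gq and phospholipase C, 1 was higher and 2 lower in Lysfree vs Differentiated, a share near the 18.7% called over all genes. Plcb1 averaged 2.44, 7.52 and 2.29 FPKM and Plcb4 5.81, 2.62 and 5.51, so Differentiated was the highest group for Plcb1 and the lowest for Plcb4 while Undifferentiated and Lysfree overlapped for both, with Lysfree vs Differentiated changes of -1.65 ± 0.11 (adjusted p = 6.9e-11) and 1.14 ± 0.13 (adjusted p = 1.8e-07, edgeR). Without Lysfree 1 the Plcb4 change was 0.97, under 2-fold. Plcb2 had 18 and 143 reads in the Undifferentiated and Differentiated groups and 1 read in Lysfree. Calcineurin, the calcium-dependent phosphatase that activates NFAT, has catalytic subunits encoded by Ppp3ca, Ppp3cb and Ppp3cc. Ppp3ca and Ppp3cc averaged 19, 13.2 and 26.7 FPKM and 2.77, 2.34 and 4.57 FPKM, with changes of 1.07 ± 0.11 (adjusted p = 4e-08) and 1.03 ± 0.15 (adjusted p = 7.6e-06, edgeR) in Lysfree vs Differentiated. These calls sat at the 2-fold line: Ppp3ca measured 32.5, 23.2 and 24.3 FPKM in the Lysfree libraries and its change was 0.89 without Lysfree 1, and that of Ppp3cc was 0.99 without Differentiated 3 or without Lysfree 3. Ppp3cb, named outside the rule, averaged 7.17, 7.3 and 5.96 FPKM and did not pass the test (-0.23 ± 0.12, adjusted p = 0.17, edgeR). In that list of calcineurin, NFAT and calmodulin genes, 2 were higher and 1 lower of 13 tested. Among 6 tested voltage-gated calcium channels only Cacna1a, the P/Q-type pore, was a DEG there: it averaged 1.77, 0.111 and 0.588 FPKM and changed by 2.48 ± 0.30 (adjusted p = 6.3e-07, edgeR). Of the 5 polycystin-1 family genes 1, Pkd1l3, was lower, at -1.23 ± 0.36 (adjusted p = 0.0095, edgeR), from levels of 0.182, 0.269 and 0.108 FPKM. Neither of the 2 Piezo stretch channels was a DEG in that comparison by edgeR or DESeq2, although Piezo2 had an unadjusted p of 0.048 in edgeR.

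**Figure D4:**
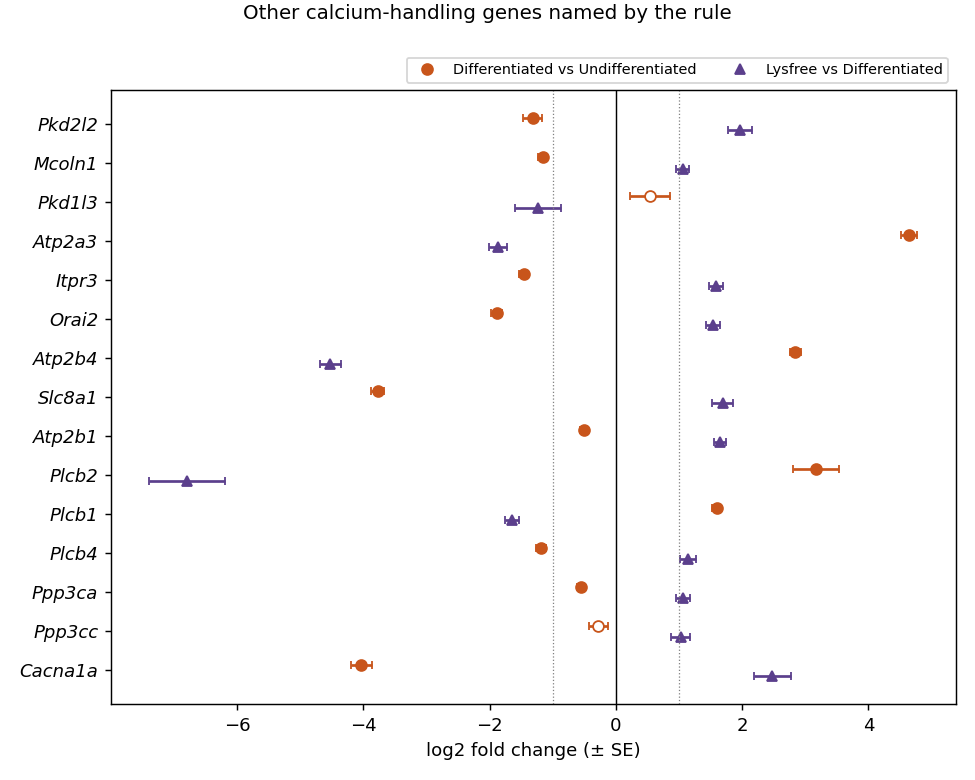
log2 fold change ± SE (x axis) of 15 genes from the other lists in Differentiated vs Undifferentiated and Lysfree vs Differentiated; filled symbols passed an adjusted p of 0.05 and dotted lines mark 2-fold. These genes were picked by their Lysfree vs Differentiated change; Atp2a3, Atp2b4, Plcb1 and Plcb2 lie to the right for the former comparison and to the left for the latter.

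The genes whose profile over the 9 libraries was closest to each member were found by the root mean square (RMS) difference of log2 CPM, each gene centred on its own mean, among 12708 genes. For Trpc1 the closest was Cyp51, a sterol demethylase gene, at an RMS of 0.15. Cyp51 averaged 12.8, 102 and 15.6 FPKM in the 3 groups. For Trpm7 they were Serinc3, a membrane protein gene, at 0.0451 and Tlk1, a kinase gene, at 0.0519. For Pkd2 they were Tmem173, which encodes the innate immune adaptor STING, at 0.0574 and Ift46, an intraflagellar transport gene, at 0.0611. Trpm4 lay closest to Cx3cl1, a chemokine gene, at 0.0875 and Dock1 at 0.0876. The low-count members had looser neighbours: Trpv2 with Sapcd2 at 0.168 and Kif15 at 0.24, Trpv4 with Ttc12 at 0.165 and Wdr66 at 0.231, and Trpm5 with Cdhr4 at 0.35 and Kazald1 at 0.376. Of the 14 neighbours found for the 7 members compared, 7 were again among the nearest when log2(FPKM + 0.1) was used. Cyp51, Dock1, Kif15, Wdr66, Cdhr4 and Kazald1 were among those that were not. All profiles come from the same 9 libraries in 3 groups, so this likeness is a description. Trpv1, below 1 CPM on average, was not compared.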

How the data were processed

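The 9 libraries were poly A enriched and sequenced as paired ends. The authors aligned reads with HISAT2 2.0.5 to mm10 and assigned them with featureCounts 1.5.0-p3, per the labels; the annotation release and strand setting are not given in the sources used here. The deposited table holds raw read counts per gene, and the FPKM values were calculated by the authors from them and deposited beside them. The members and lists were chosen with earlier results of these data known. Counts were tested with edgeR 4.0.16 (R 4.3.3, TMM, quasi-likelihood) on the 6 libraries of each comparison, after removing genes with 0 reads in all 6. The study's own test was DESeq2, which was run here as an alternative (1.42.0), with limma 3.58.1 on log2(FPKM + 1) and log2(FPKM + 0.1). In Differentiated vs Undifferentiated edgeR found no spread of dispersions beyond its trend, which makes the p-values there very small. An exact permutation test of 3 against 3 libraries cannot give a p below 0.1 and was not used. Intervals and limits for low counts cover counting error only. The edgeR, DESeq2 and limma fits were tested on simulated counts for Lysfree vs Differentiated. That simulation placed its changes only in genes with more reads than Trpv1, Trpv2, Trpv4 and Trpm5 had. It therefore did not cover the calls for these low-count members. The family shares, the neighbours in profile and the motif search were not covered either. The text names all members, genes overlapping them, the 2 genes nearest in profile, and up to 3 DEGs per list in Lysfree vs Differentiated with a mean of at least 1 CPM and the largest changes. A neighbour in profile and a marker gene are not reported here. Replicate 1 to 3 numbers were checked for pairing.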

Additional observations from a re-analysis of the deposited data

Results flagged for a closer look

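The Trpm7 level changed from Undifferentiated in opposite directions in the induced groups: lower with lysine (log2 fold change -0.40 ± 0.06) and higher without it (0.42 ± 0.10), every library of each induced group lying on its own side of the Undifferentiated libraries. The difference between the induced groups was tested directly and was 0.81 ± 0.10 on the log2 scale (edgeR, adjusted p = 6.5e-07, n = 3 per group). It stood at 0.67 without Lysfree 1, the highest library. The pattern was not particular to Trpm7. Pkd2l2 of the same family changed by -1.32 ± 0.15 (adjusted p = 4.4e-18) with lysine and 0.65 ± 0.16 (adjusted p = 0.0019) without it, by edgeR. Lysfree 1 was also the highest library for Pkd2l2. Atp2b1 likewise changed by -0.51 ± 0.06 and 1.15 ± 0.10. The share of all genes with such a pattern was not counted.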

How the results depend on the processing

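For the 8 measurable members, 320 of 334 alternative values kept their direction and their side of the adjusted p threshold, 8 lost significance, 6 gained it and 0 reversed. For the other named genes 616 of 629 kept their side of the adjusted p threshold, with 11 losing and 2 gaining significance. Among these genes a change of direction was counted only where the main value had passed the threshold. These tallies ignore the 2-fold limit, so a value that lost its DEG call can count as kept. The list counts stayed within 1.5 times in 307 of 360 cases. Of the other 19 channels, DESeq2 called 3 rather than 5 in Differentiated vs Undifferentiated, and a fit of all 9 libraries called 1 rather than 0 in Lysfree vs Undifferentiated. Limma on log2(FPKM + 1), which shrinks changes of low genes, called 2 members in Differentiated vs Undifferentiated, 0 in Lysfree vs Undifferentiated and 1 in Lysfree vs Differentiated, and 2726, 1474 and 2198 of all genes. With a pseudocount of 0.1 it called 1 member and 2930 of all genes in Lysfree vs Undifferentiated. Without the 2-fold requirement the member counts were 8, 4 and 7, and the counts over all genes 11260, 8428 and 9280. Leaving out 1 library at a time gave 7 to 7, 1 to 2 and 3 to 4 members, and 5037 to 5161, 3093 to 3448 and 4120 to 4485 of all genes. The lower member counts came without Undifferentiated 3 or Lysfree 1 (Trpv4) and without Differentiated 1 (Trpm5). In Lysfree vs Undifferentiated, Trpv4 missed the threshold under limma on log2(FPKM + 0.1) (adjusted p = 0.054). Trpm7 in that comparison missed the threshold under limma on log2(FPKM + 1) (adjusted p = 0.052). Pkd2 in the same comparison passed it under DESeq2 (0.033), edgeR's expression filter (0.024), a single fit of all 9 libraries (0.049) and both limma fits (0.016 and 0.02). Same-numbered replicates had correlations of deviations of -0.085 to 0.116 over 14265 genes, and differently numbered ones -0.157 to 0.106. Pairing was thus not seen, but this check cannot exclude that libraries were handled in pairs. A replicate block in the edgeR model gave 7, 2 and 3 members and 4837, 3179 and 4173 genes, and lost Trpm5 in Lysfree vs Differentiated (adjusted p = 0.054). Trpv1, Trpv2, Trpv4 and Trpm5 rest on few reads, which limits their precision.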
